A study of Rattus norvegicus with 12 samples.

Results

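The cytosolic nucleic acid sensors described here are 9 genes of the 18483 in the deposited tables, chosen by symbol alone: Ddx58 (also named Rigi, the gene of RIG-I), Ifih1 (MDA5), Dhx58 (LGP2), Mavs, Zbp1, Eif2ak2 (PKR), Adar, Tmem173 (Sting1, the gene of STING) and Tbk1. All 9 passed the filter on low counts and were among the 13967 genes tested. RNA was sequenced from neonatal rat ventricular myocytes (NRVMs) of Sprague-Dawley rats, cardiomyocytes enriched from newborn hearts and kept in culture, in 12 samples that form 4 groups of 3. siNeg cells received a negative control siRNA and no PE. siNeg PE cells received the same control siRNA and, 12 h later, phenylephrine (PE), an alpha-adrenergic agonist that makes cardiomyocytes grow, for 36 h. siSlc39a2 cells received an siRNA against the zinc importer gene Slc39a2 and no PE, and siSlc39a2 PE cells received that siRNA and PE on the same schedule. All groups were transfected, and no untransfected culture was among the samples. The siRNA against Slc39a2 is of a single sequence, and an siRNA is itself a short double-stranded RNA, so the loss of Slc39a2 and other effects of that duplex cannot be told apart in these groups. The paper calls the 3 samples of a group independent biological replicates. Neither it nor the labels say whether they came from separate cell preparations, so p-values measure the spread between these samples.

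Each sample held between 24065539 and 28603854 counts in all, and Slc39a2 itself was lower after knockdown without PE (log2 fold change -2.35, SE 0.46, adjusted p = 9.8e-04) and with PE (log2 fold change -2.33, SE 0.38, adjusted p = 2.24e-04), from 50, 50 and 59 counts in siNeg to 21, 11 and 2 in siSlc39a2. Of 10 cardiomyocyte markers, all were present, 5 were called lower and 0 higher in siSlc39a2 against siNeg, and their summed level was 36201 to 36899 CPM (counts scaled to a common library size) in siNeg, 27963 to 29554 in siNeg PE, 26159 to 27082 in siSlc39a2 and 22387 to 23604 in siSlc39a2 PE. Most of the difference between siNeg and siSlc39a2 was Myh6 (mean 15858 CPM in siNeg and 7407 in siSlc39a2). The markers that did not pass the test were Tnnt2, Pln and Myl2, with log2 fold changes above 0, and Ryr2 (-0.39) and Nkx2-5 (-0.16). The 10 fibroblast markers summed to 13911 to 18414 CPM in siNeg and 5394 to 5701 in siSlc39a2, where 7 were called lower and Tcf21 higher (log2 fold change 0.34, adjusted p = 0.00236), and Col1a1 made up most of the sum (10756 and 3351 CPM). No tested marker of macrophages, dendritic cells or T cells was called higher after knockdown, and those of B cells and neutrophils were too low to test. The macrophage list (9 of 10 in the tables) summed to 84.3 to 122 CPM in siNeg and 43.1 to 55.1 in siSlc39a2, with 4 of 8 tested called lower and 0 higher. Ptprc, which marks all leukocytes, had between 4 and 16 counts in any sample, Cd3e of T cells at most 1 and Cd79a of B cells at most 2. In bulk samples, fewer cells of a type and less RNA per cell cannot be told apart, and the part of the cardiomyocyte and fibroblast changes in the results below was not tested.

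Cells recognise RNA and DNA of viruses, and their own nucleic acids when these are misplaced, by proteins in the cytosol. RIG-I and MDA5 are helicases that bind double-stranded RNA and then bind MAVS, an adaptor on mitochondria, while LGP2 is a relative that lacks the signalling domain and tunes both. DNA is seen by cGAS, which signals through STING on the endoplasmic reticulum. Both routes meet at the kinase TBK1, which activates IRF3 and so the type I interferon genes. PKR binds double-stranded RNA and slows translation by phosphorylating eIF2alpha, ZBP1 binds left-handed (Z-form) nucleic acids and can start necroptosis through RIPK3, and ADAR converts adenosine to inosine in double-stranded RNA, which keeps the cell's own RNA from being taken for foreign. Several of these genes are themselves induced by interferon, through promoter elements that contain pairs of GAAA.

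The promoters are shown first, since such elements were searched for in them. RefSeq promoters (build GRCr8, a later build than the Rnor_6.0 that the submitters name) were at hand for 5 of the 9 genes: Ifih1, Mavs, Eif2ak2, Tmem173 and Tbk1. Each was searched on both strands from 250 bases before to 50 bases after the start for the core of the interferon response element (GAAA, any 2 bases, GAAA), the interferon gamma activated site (TTCNNNGAA) and an NFkB site core (GGG, any 2 bases, TTTCC). The first was found in Ifih1 and Eif2ak2, against 3.92% of 33469 promoters and 2.99% of the 12292 promoters of genes tested. It was not found in Mavs, nor in Tmem173 and Tbk1, which were both called higher after knockdown without PE. None of the 5 held the second (in 8.87% of all promoters) or the third (in 1.53%). In Ifih1 the match GAAACAGAAA ran from base -59 to base -50 and in Eif2ak2 the match GAAAACGAAA ran from -16 to -7, where -1 is the last base before the start. The 250 bases before the start are printed for both genes and for Mavs, which moved the opposite way after knockdown, with the match in capitals where there is one. They lie at chr3:67683969-67684218 on the minus strand (Ifih1), chr6:21940904-21941153 on the plus strand (Eif2ak2) and chr3:138904562-138904811 on the plus strand (Mavs). A match is a description of letters, not a bound site.
Ifih1: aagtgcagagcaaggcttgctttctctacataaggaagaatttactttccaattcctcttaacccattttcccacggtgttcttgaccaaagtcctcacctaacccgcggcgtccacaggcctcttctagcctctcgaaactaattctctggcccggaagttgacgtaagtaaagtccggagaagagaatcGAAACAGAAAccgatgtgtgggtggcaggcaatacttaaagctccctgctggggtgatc
Eif2ak2: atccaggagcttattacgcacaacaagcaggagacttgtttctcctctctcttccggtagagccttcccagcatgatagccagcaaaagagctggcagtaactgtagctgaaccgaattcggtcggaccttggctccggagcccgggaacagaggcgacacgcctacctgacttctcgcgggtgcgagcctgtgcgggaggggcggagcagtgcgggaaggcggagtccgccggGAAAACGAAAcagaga
Mavs: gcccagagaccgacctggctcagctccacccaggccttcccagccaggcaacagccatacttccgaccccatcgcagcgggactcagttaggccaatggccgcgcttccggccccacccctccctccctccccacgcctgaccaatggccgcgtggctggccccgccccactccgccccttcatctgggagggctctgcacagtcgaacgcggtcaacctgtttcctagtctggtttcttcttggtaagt

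Slc39a2 knockdown raised the 3 RNA helicase genes, Eif2ak2 and Zbp1 by more than 10-fold, raised Adar and Tbk1 by less than that, and lowered Mavs. In siSlc39a2 against siNeg, 8 of the 9 genes were called higher at an adjusted p below 0.05 (edgeR's quasi-likelihood test, Benjamini-Hochberg over all genes tested) and 1 lower, where 22.8% of all genes tested were called higher and 26.4% lower. Ddx58, Ifih1, Dhx58, Zbp1, Eif2ak2 and Adar were higher by more than 2-fold, as were 4.57% of all genes tested. Zbp1 passed the filter on low counts only through the knockdown groups, so its direction was fixed in advance. With PE in both groups, siSlc39a2 PE against siNeg PE, 7 genes were called higher and 1 lower (all genes tested: 29.2% higher and 28.1% lower), and 6 were higher by more than 2-fold (6.03%). The median of the 9 log2 fold changes was 3.56 in the absence of PE and 3.60 in its presence, beside -0.016 and 0.010 over all genes tested. The samples of both groups did not overlap for 8 of the 9 genes in either comparison, Tmem173 being the exception, beside 58.5% of all genes tested without PE and 63.5% with PE.

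**Figure D1:**
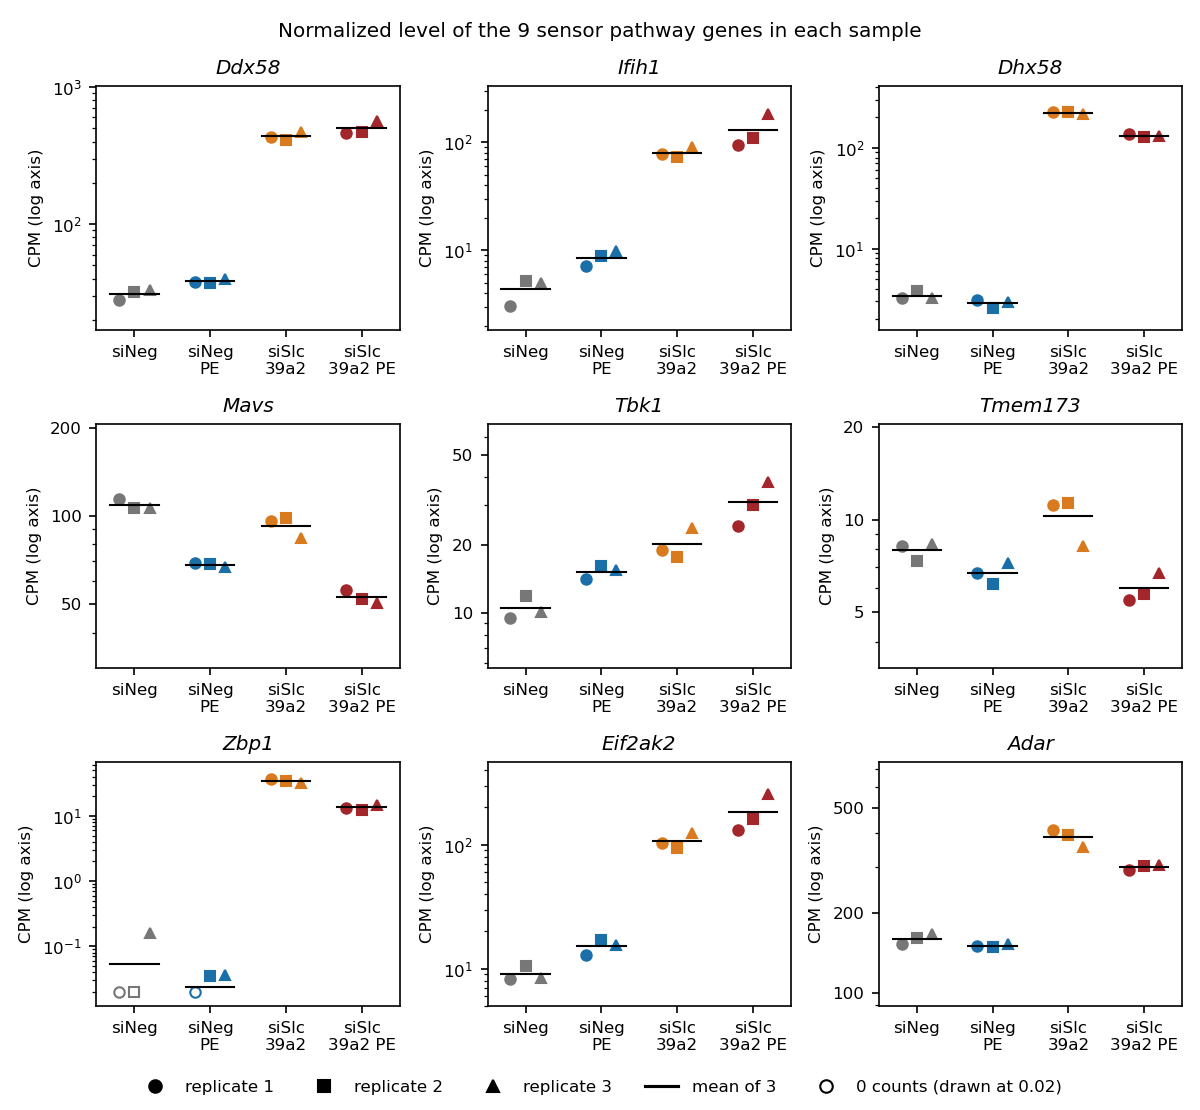
Normalized level in CPM (vertical axis, log scale, 1 panel per gene) of the 9 genes in each of the 12 samples. Symbols are replicates 1 to 3, black lines are means of 3, and open symbols are samples with 0 counts. Both knockdown groups lie above both siNeg groups for Ddx58, Ifih1, Dhx58, Zbp1, Eif2ak2, Adar and Tbk1, while Mavs and Tmem173 do not show this order.

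Among the RNA helicases, Ddx58 stood at 28.1, 31.9 and 33.1 CPM in siNeg and at 430.4, 411 and 468 CPM in siSlc39a2. That was a log2 fold change of 3.81 (SE 0.10, adjusted p = 4.79e-12), or 14.1-fold. In siNeg PE it had 37.6, 37.2 and 39.8 CPM and in siSlc39a2 PE 463, 474 and 566 CPM, a log2 fold change of 3.71 (SE 0.10, adjusted p = 7.76e-12). All 6 knockdown samples lay above all 6 control siRNA samples.

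Ifih1, which prefers long double-stranded RNA, was scarce in siNeg at 3.04, 5.15 and 4.97 CPM (77, 136 and 126 counts) and rose to 77.8, 73.1 and 89.6 CPM in siSlc39a2. The log2 fold change was 4.19 (SE 0.26, adjusted p = 4.6e-08), or 18.2-fold. With PE it went from 7.15, 8.76 and 9.76 CPM to 94.4, 110.1 and 184 CPM, a log2 fold change of 3.92 (SE 0.25, adjusted p = 5.38e-08). The siNeg replicate 1 was the lowest and the siSlc39a2 PE replicate 3 by far the highest of their groups.

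Dhx58, the relative without a signalling domain, rose most of the 3 helicases. It went from 3.24, 3.79 and 3.27 CPM in siNeg to 227, 224 and 215 CPM in siSlc39a2 (log2 fold change 6.01, SE 0.09, adjusted p = 9.26e-14), or 64.6-fold. With PE the levels were 3.13, 2.60 and 2.97 CPM and then 136, 127 and 131 CPM (log2 fold change 5.50, SE 0.09, adjusted p = 1.84e-13), or 45.2-fold. Unlike Ddx58 and Ifih1, its level in the knockdown samples with PE lay below that in all knockdown samples without PE.

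The 3 helicases therefore took different shares of their common transcript pool. Measured as FPKM, which corrects for gene length, their sum rose from 9.21 in siNeg to 223 in siSlc39a2 and was 12.1 in siNeg PE and 201 in siSlc39a2 PE. Dhx58 made up 14.9%, 15.3% and 13.4% of the sum in siNeg and 44.0%, 44.6% and 40.9% in siSlc39a2. Ddx58 made up 78.0%, 74.4% and 77.0% and then 48.4%, 48.1% and 50.8%. For both shares the groups did not overlap, which with 3 samples against 3 gives an exact two-sided permutation p = 0.1, the smallest that this design allows (0.133 after adjustment over 12 comparisons). The Ifih1 share was 9.02% on average in siNeg and 7.74% in siSlc39a2 (exact permutation p = 0.4). With PE, Dhx58 held 9.59% in siNeg PE and 27.1% in siSlc39a2 PE on average, again without overlap (exact permutation p = 0.1, the smallest possible).

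**Figure D2:**
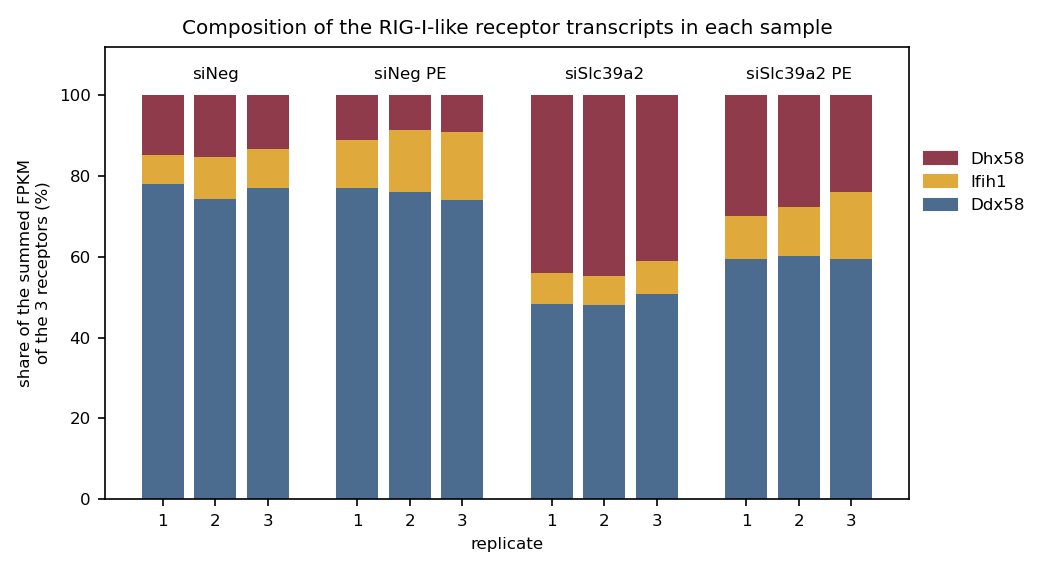
Share of Ddx58, Ifih1 and Dhx58 in the summed FPKM of these 3 receptors (vertical axis, percent) in each of the 12 samples (horizontal axis, replicates by group). The Dhx58 share is between 13.4% and 15.3% in siNeg and between 40.9% and 44.6% in siSlc39a2, and it is smaller with PE than without PE for either siRNA.

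Mavs, the adaptor that both signalling helicases need, was the gene called lower. Its level was 114, 106 and 107 CPM in siNeg and 95.8, 98.2 and 83.9 CPM in siSlc39a2 (log2 fold change -0.24, SE 0.07, adjusted p = 0.0134). With PE it was 68.9, 68.8 and 66.8 CPM and then 55.8, 52.2 and 50.4 CPM (log2 fold change -0.37, SE 0.07, adjusted p = 7.37e-04). The groups did not overlap in either comparison, but the change was small and, without PE, rested on siSlc39a2 replicate 3: without that sample it was -0.12 (adjusted p = 0.161).

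Tbk1, the kinase below MAVS and STING, rose by a smaller factor than the helicases. It had 9.52, 11.9 and 10.1 CPM in siNeg and 19.1, 17.8 and 23.8 CPM in siSlc39a2 (log2 fold change 0.94, SE 0.16, adjusted p = 3.79e-04). With PE it went from 14.2, 16.1 and 15.5 CPM to 24.4, 30.2 and 38.2 CPM (log2 fold change 1.02, SE 0.16, adjusted p = 1.31e-04). Neither pair of groups overlapped.

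Tmem173, the DNA-route adaptor STING, was low in every group. It had 8.21, 7.31 and 8.31 CPM in siNeg and 11.1, 11.4 and 8.23 CPM in siSlc39a2, and replicate 3 of the latter lay within the siNeg range. The log2 fold change of 0.37 (SE 0.14, adjusted p = 0.0401) passed the threshold narrowly, and it did not pass it when any of 5 of the 6 samples was left out (siNeg replicate 1, 2 or 3, siSlc39a2 replicate 1 or 2), with values between 0.29 and 0.40 (adjusted p from 0.0588 to 0.147). Without siSlc39a2 replicate 3 it was 0.55 (adjusted p = 0.00365). With PE the levels were 6.71, 6.16 and 7.23 CPM and 5.48, 5.73 and 6.73 CPM, which overlapped, and the log2 fold change was -0.16 (95% confidence interval -0.47 to 0.14, adjusted p = 0.34).

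Eif2ak2, the gene of PKR, rose more than 10-fold. Its level was 8.33, 10.5 and 8.47 CPM in siNeg and 103, 94.1 and 126 CPM in siSlc39a2 (log2 fold change 3.56, SE 0.23, adjusted p = 6.88e-08), or 11.8-fold. With PE it was 13.0, 17.0 and 15.5 CPM and then 131, 161 and 258 CPM (log2 fold change 3.60, SE 0.23, adjusted p = 4.99e-08). Its counts were not whole numbers in 10 of the 12 samples, which can arise where reads are shared between genes. The cause was not tested, and its values are less certain than those of the other 8, whose counts were whole throughout.

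Zbp1 was close to absent with the control siRNA. Across its replicates, siNeg gave 0, 0 and 4 counts and siNeg PE gave 0, 1 and 1, against 1079, 1006 and 823 in siSlc39a2 and 360, 356 and 412 in siSlc39a2 PE. In 1 sample, 3 counts, the number taken as the limit of detection, corresponded to 0.102 to 0.119 CPM, and the level after knockdown was 37.3, 34.1 and 32.1 CPM without PE and 13.4, 12.3 and 15.0 CPM with PE. Because the reference groups hold 4 and 2 counts in all, the size of the rise is known only roughly: as a ratio of pooled counts per library size it was 666-fold without PE (95% exact interval 260 to 2448) and 561-fold with PE (155 to 4636). These intervals cover counting error only. Both rises passed the test (adjusted p = 1.4e-10 and 1.21e-09). Their direction was fixed in advance, since the gene passed the filter on low counts only through the knockdown groups.

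Adar, the editing enzyme, was already abundant in siNeg, at 153, 161 and 167 CPM, and rose to 413, 396 and 355 CPM in siSlc39a2 (log2 fold change 1.28, SE 0.06, adjusted p = 4.32e-09), or 2.42-fold. With PE it went from 150.4, 149 and 153 CPM to 290.2, 301 and 305 CPM (log2 fold change 0.99, SE 0.06, adjusted p = 5.69e-08), or 1.98-fold. The gene makes a constitutive and an interferon-inducible form of the enzyme, and counts per gene do not separate them.

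**Figure D3:**
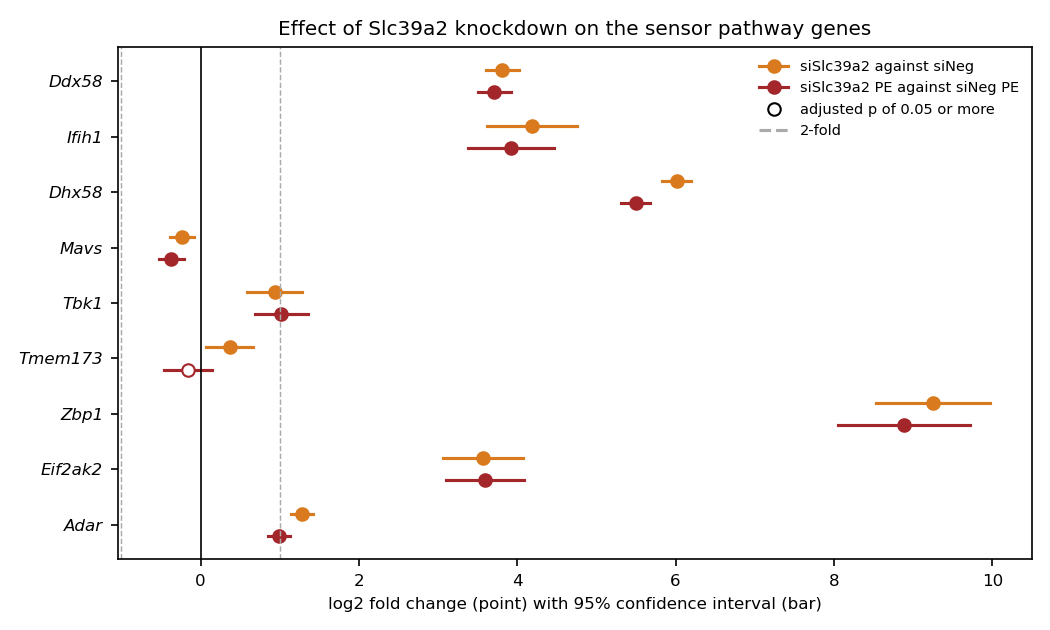
Log2 fold change (horizontal axis) of the 9 genes after Slc39a2 knockdown, without PE (orange) and with PE (red). Points are estimates of edgeR, bars are 95% confidence intervals, filled points passed an adjusted p of 0.05 and dashed lines mark 2-fold. The estimates of Zbp1 rest on 4 and 2 counts in the control siRNA groups, and the open point is Tmem173 with PE at -0.16.

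Ranked by mean FPKM, the genes changed places. In siNeg the order was Mavs (36.6 ± 0.86, SD, n = 3), Adar (27.1 ± 2.4), Ddx58 (7.03 ± 0.63), Tmem173 (3.86 ± 0.27), Tbk1 (3.44 ± 0.46), Eif2ak2 (2.32 ± 0.33), Dhx58 (1.33 ± 0.13), Ifih1 (0.84 ± 0.23) and Zbp1 (0.023 ± 0.040), and among neighbours in this order only the samples of Tmem173 and Tbk1 overlapped. The adaptor thus exceeded each receptor in the control cells. In siSlc39a2 the order was Ddx58 (109.6 ± 8.1), Dhx58 (96.3 ± 1.2), Adar (75.4 ± 5.8), Mavs (34.3 ± 2.4), Eif2ak2 (30.3 ± 5.0), Zbp1 (21.3 ± 1.4), Ifih1 (17.3 ± 1.9), Tbk1 (7.31 ± 1.3) and Tmem173 (5.47 ± 0.86), with overlap only between Mavs and Eif2ak2.

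With PE the order changed again. In siNeg PE it was Adar (27.3 ± 1.5), Mavs (24.2 ± 0.42), Ddx58 (9.19 ± 0.38), Tbk1 (5.27 ± 0.43), Eif2ak2 (4.07 ± 0.60), Tmem173 (3.43 ± 0.26), Ifih1 (1.79 ± 0.41), Dhx58 (1.16 ± 0.10) and Zbp1 (0.013 ± 0.012), with overlap only between Eif2ak2 and Tmem173. In siSlc39a2 PE, Ddx58 led at 120.1 ± 13 and Tmem173 was last at 3.09 ± 0.35. There the neighbours Adar (55.3 ± 1.7), Dhx58 (54.1 ± 1.6), Eif2ak2 (49.6 ± 18), Ifih1 (26.8 ± 9.5) and Mavs (18.9 ± 0.93) each overlapped with the next, as did Tbk1 (10.8 ± 2.4) with Zbp1 (8.12 ± 0.96).

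PE raised some of the genes and lowered Mavs. In siNeg PE against siNeg, Ddx58, Ifih1, Eif2ak2 and Tbk1 were called higher and Mavs lower, 4 and 1 of 9, where 24% of all genes tested were called higher and 25.7% lower. None changed by more than 2-fold. Ifih1 had the largest rise, from 3.04, 5.15 and 4.97 to 7.15, 8.76 and 9.76 CPM (log2 fold change 0.96, SE 0.27, adjusted p = 0.0116). Eif2ak2 rose by a log2 fold change of 0.74 (SE 0.23, adjusted p = 0.0201), Tbk1 by 0.54 (SE 0.16, adjusted p = 0.0157) and Ddx58 by 0.30 (SE 0.09, adjusted p = 0.0167). These 4 calls depended on 1 library: without siNeg replicate 1, the lowest sample of its group for each of them, only Mavs was called, and without siNeg PE replicate 2 or 3 there were 3 calls.

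Mavs was the 1 sensor gene that fell with PE. Its log2 fold change was -0.68 (SE 0.07, adjusted p = 1.34e-05), from 114, 106 and 107 to 68.9, 68.8 and 66.8 CPM. The changes of Dhx58 (-0.24, 95% confidence interval -0.50 to 0.0061), Tmem173 (-0.25, -0.55 to 0.054) and Adar (-0.088, -0.22 to 0.048) did not pass the test. Under limma on its 3 scales Dhx58 (-0.40 to -0.24) and Tmem173 (-0.40 to -0.32) did pass it (adjusted p at most 0.0082 and 0.0466), Ddx58 (0.22 to 0.27, adjusted p from 0.0584 to 0.0641) and Eif2ak2 (0.45 to 0.62, adjusted p from 0.0527 to 0.0918) did not, and the sign of the Adar value turned (0.0049 to 0.011). For Zbp1, with at most 4 counts in a sample, a change with PE was not detectable at this depth.

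After knockdown, PE moved the genes in opposite directions. In siSlc39a2 PE against siSlc39a2, 3 genes were called higher and 5 lower, beside 30.7% and 29.3% of all genes tested. Eif2ak2 (log2 fold change 0.77, SE 0.20, adjusted p = 0.00515), Ifih1 (0.69, SE 0.21, adjusted p = 0.0137) and Tbk1 (0.62, SE 0.15, adjusted p = 0.00399) rose, and Ddx58 had a value of 0.20 (95% confidence interval 0.015 to 0.38, adjusted p = 0.0585). siSlc39a2 PE replicate 3 was the highest sample for these 4 genes, at 184 CPM beside 94.4 and 110.1 for Ifih1 and at 258 beside 131 and 161 for Eif2ak2. Without it the values were 0.44 for Eif2ak2 (adjusted p = 0.0178), 0.44 for Tbk1 (adjusted p = 0.0183) and 0.35 for Ifih1, which then missed the threshold (adjusted p = 0.0723). Without siSlc39a2 replicate 2 Ifih1 missed it as well (0.63, adjusted p = 0.0536).

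The 5 genes that fell were Zbp1, Mavs, Tmem173, Dhx58 and Adar. Zbp1 fell by more than 2-fold, from 37.3, 34.1 and 32.1 to 13.4, 12.3 and 15.0 CPM (log2 fold change -1.35, SE 0.17, adjusted p = 2.93e-05). Dhx58 fell from 227, 224 and 215 to 136, 127 and 131 CPM (log2 fold change -0.76, SE 0.06, adjusted p = 1.27e-06). Mavs (-0.81, SE 0.07, adjusted p = 1.71e-06), Tmem173 (-0.78, SE 0.14, adjusted p = 4.45e-04) and Adar (-0.38, SE 0.06, adjusted p = 2.63e-04) were lower too. The samples of both groups did not overlap for 8 of the 9 genes, Ddx58 being the exception, beside 65.2% of all genes tested. For Dhx58 (131 beside 136 and 127 CPM) and Adar (305 beside 290.2 and 301 CPM), siSlc39a2 PE replicate 3 did not stand apart from the other 2 samples.

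**Figure D4:**
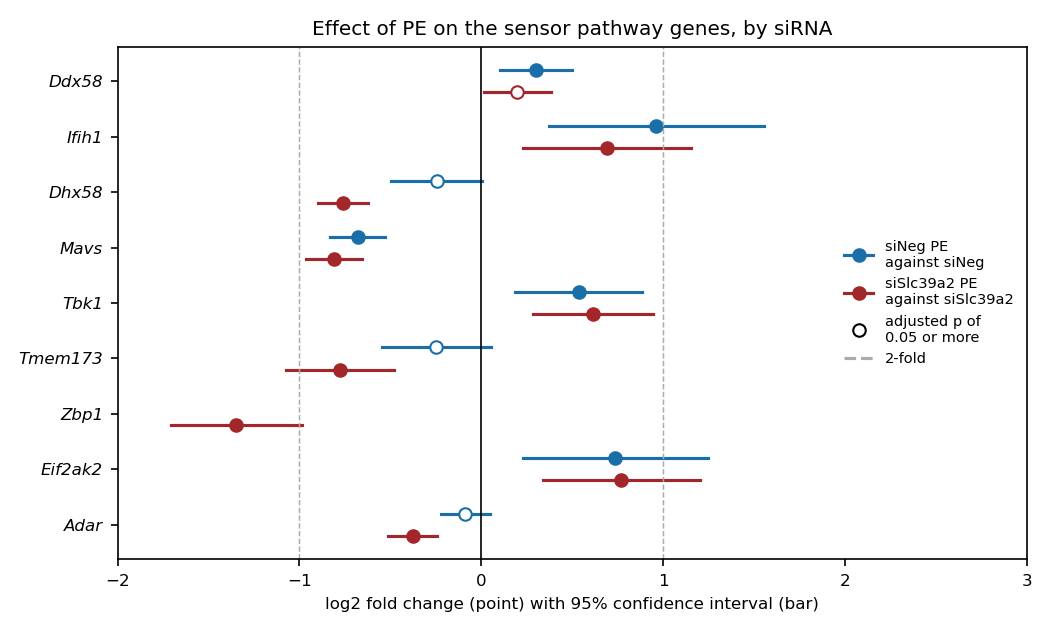
Log2 fold change (horizontal axis) with PE in siNeg cells (blue) and in siSlc39a2 cells (red). Points are estimates of edgeR, bars are 95% confidence intervals, filled points passed an adjusted p of 0.05 and dashed lines mark 2-fold. Zbp1 is drawn after knockdown alone, since the siNeg and siNeg PE samples hold 0 to 4 counts. Ddx58, Ifih1, Tbk1 and Eif2ak2 lie right of 0 and the other genes left of 0 for either siRNA.

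The same libraries differed in the length of the gene models behind their reads. The mean length of the gene models, weighted by reads (harmonic mean, from the sum of FPKM over all genes), was 1530, 1637 and 1662 bases in siNeg replicates 1 to 3, 1624, 1666 and 1709 in siNeg PE, 1646, 1619 and 1646 in siSlc39a2 and 1673, 1718 and 1760 in siSlc39a2 PE. siNeg replicate 1, lowest for Ifih1, Eif2ak2, Tbk1 and Ddx58, has the shortest value of all 12, and siSlc39a2 PE replicate 3, highest for them, the longest. The models of the 9 genes run from about 1690 bases (Zbp1) and 1950 bases (Tmem173) through 2450 (Dhx58), 2820 (Mavs), 2900 (Tbk1), 3720 (Eif2ak2), 4180 (Ddx58) and 4850 (Ifih1) to 5450 bases (Adar). The part of this difference between libraries in the PE changes was not tested.

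Whether the knockdown effect differed with and without PE was tested by the interaction. It passed the threshold for 1 of the 9 genes, Dhx58, in the negative direction, beside 1.73% of all genes tested in the positive and 1.88% in the negative direction. The Dhx58 rise was smaller with PE than without it by 0.51 on the log2 scale (interaction -0.51, SE 0.12, adjusted p = 0.0344). Values for Tmem173 (-0.53, SE 0.20, adjusted p = 0.195) and Adar (-0.29, SE 0.09, adjusted p = 0.103) did not pass it. For Ddx58 (-0.10, 95% confidence interval -0.37 to 0.17), Eif2ak2 (0.034, -0.64 to 0.70) and Tbk1 (0.081, -0.40 to 0.56) the intervals included 0, and that of Zbp1 (-4.91 to 4.17) was too wide to read. The count of calls was 0 when either siNeg replicate 1 or 3, siNeg PE replicate 1 or 3, siSlc39a2 replicate 1 or 2, or siSlc39a2 PE replicate 2 or 3 was left out, and 3 (Dhx58, Adar and Tmem173) without siSlc39a2 replicate 3.

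The wider RNA-sensing arm was measured too. Of 40 further genes that act with RIG-I, MDA5 and MAVS (ubiquitin ligases, cofactors and regulators), 20 were called higher and 5 lower in siSlc39a2 against siNeg, 6 of them by more than 2-fold, with a median log2 fold change of 0.31 (all genes tested: 22.8% higher, 26.4% lower, 4.57% higher by more than 2-fold, median -0.016). Ddx60, a helicase cofactor of RIG-I, rose from 14.3 to 21.2 counts per siNeg sample to 1957 to 2292 counts per siSlc39a2 sample (log2 fold change 6.84, SE 0.33, adjusted p = 2.92e-09). Trim14, which binds MAVS, rose by 3.18 (SE 0.30), the antiviral zinc finger protein gene Zc3hav1 by 2.35 (SE 0.15) and Trim25, a ligase that acts on RIG-I, by 1.61 (SE 0.06) on the log2 scale. Trim14 had 5 to 14 counts per siNeg sample and 89 to 98 per siSlc39a2 sample. It passed the filter on low counts only through the knockdown groups, so its direction was fixed in advance. The counts of Ddx60 and Zc3hav1 are not all whole, so both are uncertain. In siSlc39a2 PE against siNeg PE, 24 were called higher and 5 lower (median 0.43, all genes tested 29.2% and 28.1%, median 0.010).

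The DNA-sensing list held genes called in both directions. Of its 45 genes 43 were in the tables and 40 were tested, of which 14 were called higher and 13 lower without PE (22.8% and 26.4% of all genes tested, list median log2 fold change 0.067), and 13 and 13 with PE (29.2% and 28.1%, list median 0.074). Past 2-fold, 5 were higher and 0 lower in either comparison (4.57% and 6.03% of all genes tested were higher past 2-fold). Cgas, which makes the messenger that STING binds, rose from 4 to 8 counts per siNeg sample to 48 to 72 counts per siSlc39a2 sample (log2 fold change 3.12, SE 0.45, adjusted p = 8.94e-05). Aim2, an inflammasome DNA sensor, had at most 2 counts in a siNeg sample and 69 to 96 after knockdown, at least 25.4-fold higher against 3 counts per library. It passed the filter on low counts only through the knockdown groups, so its direction was fixed in advance. Mnda, of the same protein family, rose by 4.12 (SE 0.25) and Samhd1, which degrades nucleotides, by 2.21 (SE 0.11) on the log2 scale.

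Of 24 genes that act downstream of both routes (kinases, their adaptors, phosphatases and transcription factors), 11 were called higher and 3 lower without PE (22.8% and 26.4% of all genes tested, list median log2 fold change 0.23), and 15 and 2 with PE (29.2% and 28.1%, list median 0.34). Irf7, an interferon-inducible factor that amplifies interferon production, went from 32.1 ± 1.9 CPM in siNeg to 4440 ± 582 CPM (SD, n = 3) in siSlc39a2, a log2 fold change of 7.11 (SE 0.16, adjusted p = 1.68e-12). Optn, an adaptor that binds TBK1, rose by 1.26 (SE 0.10) and Irf5 by 1.08 (SE 0.14) on the log2 scale. Dok3 fell by 1.32 (SE 0.29), from 19 to 22 counts per sample to 8 or 9. It passed the filter on low counts only through the siNeg samples, so its direction was fixed in advance.

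PKR acts through the integrated stress response, and 12 of 22 genes of that list were called higher and 0 lower in siSlc39a2 against siNeg (22.8% and 26.4% of all genes tested, list median log2 fold change 0.24), while 10 were higher and 3 lower with PE (29.2% and 28.1%, list median 0.15). The stress transcription factor genes Atf3 (2.22, SE 0.11) and Ddit3 (1.29, SE 0.11) rose on the log2 scale, with counts that are not all whole. Ppp1r15a, which directs the phosphatase that reverses the action of PKR on eIF2alpha, rose by 1.06 (SE 0.07) without PE and by 0.48 (SE 0.07) with PE, and this difference passed the interaction test (-0.58, SE 0.10, adjusted p = 0.00611). It was 1 of 4 genes of the list called negative for the interaction (1.88% of all genes tested), with Atf4, Trib3 and Chac1, which are named after their values were seen.

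Of 8 genes that act with ZBP1 in cell death, 6 were called higher and 0 lower without PE, 5 by more than 2-fold (22.8%, 26.4% and 4.57% of all genes tested), with a list median log2 fold change of 1.75, and 5 were higher with PE (29.2%, list median 1.51). Ripk3, the kinase that ZBP1 engages, rose from 5.06 ± 0.77 to 19.3 ± 1.2 CPM (log2 fold change 1.93, SE 0.13, adjusted p = 1.12e-07). Mlkl, the executor of necroptosis, rose from 4.25 ± 0.70 to 23.8 ± 0.49 CPM (log2 fold change 2.49, SE 0.12, adjusted p = 3.89e-09). Inhibitors of the pathway rose as well, Cflar (not all counts whole) by 1.96 (SE 0.16) and Tnfaip3 by 1.94 (SE 0.09). PE after knockdown left Mlkl (log2 fold change 0.0019, SE 0.11, adjusted p = 0.988) and Ripk3 (0.045, SE 0.12, adjusted p = 0.763) within the spread, at the same time as Zbp1 itself fell.

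Of 6 other deaminase genes of the family 5 were in the tables and 3 were tested. None was called higher and 1 lower after knockdown without PE, beside 22.8% and 26.4% of all genes tested. The 1 called lower was Adarb1, a second editing enzyme of messenger RNA, named after its values were seen (log2 fold change -0.60, SE 0.08, adjusted p = 2.99e-05, and -0.11 with PE, adjusted p = 0.223, interaction adjusted p = 0.0228). Adat2 (0.14, SE 0.16, adjusted p = 0.507) and Adat1 (0.033, SE 0.19, adjusted p = 0.899), which act on transfer RNA, did not pass the test without PE, and Adat1 was called lower with PE (-0.70, SE 0.19, adjusted p = 0.00781).

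Of 13 genes switched on by these routes 9 were tested, and all 9 were called higher in siSlc39a2 against siNeg and 8 with PE (22.8% and 29.2% of all genes tested). Of these, Ifnb1, Ifna4, Il6 and Tnf passed the filter on low counts only through the knockdown groups. Their direction was thus fixed in advance. With the control siRNA, Ifnb1 and Ifna4 had 0 counts in every sample, and Il6 and Tnf had at most 9 and 10. Taking genes with at most 3 counts per control sample at their lower bound, the median of the 9 was 6.10 (log2 fold change) for knockdown alone and 4.10 where both groups had PE. The first value is the bound of Ifnb1, and the second is that of Tnf (SE 1.71, adjusted p = 0.0558), which was not called with PE. Counts of Tnf, not all whole, ran from 0.04 to 462 within siSlc39a2 and from 0 to 128 within siSlc39a2 PE. Ifnb1, the interferon beta gene, had 0 counts in each of the 6 control siRNA samples, 189 to 246 in siSlc39a2 and 34 to 46 in siSlc39a2 PE, so it was at least 68.7-fold higher without PE and at least 13.2-fold higher with PE against 3 counts per library. Ifna4, with counts that are not all whole, was at least 14.8-fold and 3.67-fold higher. The ubiquitin-like modifier gene Isg15 rose from 7.02 ± 1.0 to 1014 ± 47 CPM and Ifit1, an RNA-binding effector whose counts are not all whole, from 1.31 ± 0.61 to 179 ± 6.8 CPM. With PE after knockdown 6 of the 9 were called lower and 0 higher (29.3% and 30.7% of all genes tested), among them Ifnb1 (log2 fold change -2.48, SE 0.20, adjusted p = 1.16e-05) and Isg15 (-0.61, SE 0.08, adjusted p = 5.6e-05), while Ifit1 had a value of -0.19 (adjusted p = 0.213).

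Receptors for nucleic acids in endosomes gave few data. Of 4 receptor genes (Tlr3, Tlr7, Tlr8 and Tlr9) and Unc93b1, which carries them to endosomes, 3 were tested (Tlr3, Tlr7 and Unc93b1). These 3 were called higher after knockdown without and with PE (22.8% and 29.2% of all genes tested). Tlr3, which binds double-stranded RNA, rose by a log2 fold change of 2.38 (SE 0.25, adjusted p = 5.3e-06), with counts that are not all whole. Tlr7 had 1 or 2 counts per siNeg sample and 9 to 14 per siSlc39a2 sample. It passed the filter on low counts only through the knockdown groups, so its direction was fixed in advance.

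The 3 genes outside the group whose profiles over the 12 samples lay nearest to each sensor gene were found by the root mean square difference of log2 CPM after centring each gene. Nearest to Ddx58 were Parp9 (0.12), Dtx3l (0.14) and Sp100 (0.15), and nearest to Ifih1 were Mnda (0.19), Parp14 (0.20) and Trim21 (0.22). Eif2ak2 lay nearest to Trim21 (0.20), a gene named only by an identifier (0.24) and Parp9 (0.27). Dhx58 lay nearest to the chemokine gene Ccl4 (0.18), Psmb8 (0.20) and Oasl (0.28). Ddx58, Ifih1 and Dhx58 shared none of their 3 neighbours with one another. The counts of Parp9, Dtx3l, Sp100, Psmb8 and the gene named only by an identifier are not all whole, so these matches are uncertain.

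Zbp1 was less closely matched, by Rtp4 (0.51), Rsad2 (0.57) and Ifit3 (0.66). Adar lay nearest to Cmtr1 (0.078), which methylates the messenger RNA cap, Trim26 (0.084) and Sdc4 (0.11). Mavs lay nearest to Grn (0.042), Pgm5 (0.043) and Steap3 (0.058), and Tmem173 to Bcl3 (0.13), Tyw3 (0.13) and Ubald2 (0.14). Tbk1 lay nearest to Mier1 (0.081), to a gene named only by an identifier (0.085) and to Ppp4r3b (0.085). Here Cmtr1, Trim26, Tyw3, Ubald2 and the gene named by an identifier have counts that are not all whole. Among the 9 genes themselves the closest pairs were Mavs with Tmem173 (0.28), Ifih1 with Eif2ak2 (0.30) and Ddx58 with Eif2ak2 (0.32). These distances are not set against those to outside genes, since far more genes were searched outside the group than within it.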

How the data were processed

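The authors deposited expected counts per gene (estimated counts, not normalized, 70.03% of the 18483 genes whole in every sample) and FPKM for the same genes. The submitters' processing notes name HISAT, Bowtie2 and Rnor_6.0. The counting program and the annotation are not given in the sources used here. The labels give 36 h of PE, and the paper's culture methods give a longer time.

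Counts were rounded, filtered by filterByExpr (4516 genes left out) and normalized by TMM, and all 12 samples were fitted in 1 model of 4 groups (8 residual degrees of freedom) with the quasi-likelihood test of edgeR 4.0.16 in R 4.3.3. SE and intervals were derived from its p-values. CPM were taken on TMM-normalized library sizes. In the interaction, the effect of siSlc39a2 without PE is subtracted from its effect with PE. Between samples of a group, chi-square per degree of freedom over genes was 4.67 to 33.76, so none was a copy of another. The fit was tested on simulated data.

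The members and lists were chosen with earlier results of these data known. Named genes are the 9, Slc39a2, up to 4 genes per list with the largest change past 2-fold without PE (for a list with none, the most abundant genes not called), and the 3 nearest profiles. Alternatives were RLE, DESeq2 1.42.0, no filter, the compared groups alone, the replicate number as a block, limma 3.58.1 with quantile normalization (scales log2(count + 1), and FPKM on the log2 scale with 1 or 0.1 added), and leaving out each sample.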

Additional observations from a re-analysis of the deposited data

Results flagged for a closer look

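Dhx58 was singled out because its rise after Slc39a2 knockdown differed between cultures with and without PE, by an interaction of -0.5147 on the log2 scale (SE 0.12, adjusted p = 0.0344, edgeR). Means were 3.43 CPM in siNeg, 222 in siSlc39a2, 2.90 in siNeg PE and 131 in siSlc39a2 PE, so the rise was 64.6-fold without PE and 45.2-fold with PE. With each sample left out in turn the interaction was between -0.59 and -0.46, with an adjusted p from 0.0238 to 0.103, and it passed the threshold in 4 of the 12 cases.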

How the results depend on the processing

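Over the alternatives, 604 of the log2 fold changes of the 9 genes kept direction and side of the threshold, 39 lost it, 14 gained it and 17 changed sign, none of the last in a knockdown comparison. In siSlc39a2 PE against siNeg PE, 126 of 126 kept both. The number of genes called was 8 with any sample left out in siSlc39a2 against siNeg and in siSlc39a2 PE against siNeg PE, 1 to 5 in siNeg PE against siNeg, 7 to 9 in siSlc39a2 PE against siSlc39a2 and 0 to 3 for the interaction. Past 2-fold higher it was 6 to 7, 5 to 7 and, in siNeg PE against siNeg, 0 to 1 (Ifih1). For the interaction DESeq2 called 2 genes, limma on log2(FPKM + 1) called 2 and limma on log2(count + 1) called 0. The latter also called 0 genes lower by more than 2-fold in siSlc39a2 PE against siSlc39a2. Mavs lost its call in siSlc39a2 against siNeg without a filter (-0.19, adjusted p = 0.06) and in the fit on the compared groups alone (-0.21, adjusted p = 0.0507), and Tmem173 lost it under limma (0.18 to 0.23). Signs turned in siNeg PE against siNeg for Adar under limma (0.011 on log2(FPKM + 1), 0.011 on log2(FPKM + 0.1), 0.0049 on log2(count + 1)) and for Zbp1 on log2(count + 1) (0.0051) and with a sample left out (-1.54 to 2.66). For the interaction they turned for Ddx58 (0.0053) and Ifih1 (0.15) on log2(FPKM + 1), for Eif2ak2 without a filter (-0.0052), and with a sample left out for Zbp1 (-4.00 to 0.19), Eif2ak2 (-0.30 to 0.19) and Tbk1 (-0.10 to 0.19). The cause was not tested. Low counts limit Zbp1 with the control siRNA.

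Same-numbered samples did not deviate together throughout (correlations across genes of -0.011, 0.0041 and 0.025 for siSlc39a2 with siNeg, 0.31, 0.053 and 0.21 for siNeg PE with siNeg, 0.32, 0.0039 and 0.12 for siSlc39a2 PE with siNeg PE, and 0.023, -0.090 and 0.22 for siSlc39a2 PE with siSlc39a2), so the numbers were not taken to pair them. Differently numbered samples had correlations of -0.030 to 0.022 for siSlc39a2 with siNeg and -0.25 to 0.089 for siNeg PE with siNeg. They had -0.23 to 0.12 for siSlc39a2 PE with siNeg PE and -0.25 to 0.24 for siSlc39a2 PE with siSlc39a2. With the replicate number as a block, 9, 8, 5, 9 and 1 genes were called in the 5 comparisons, the added call being Ddx58 in siSlc39a2 PE against siSlc39a2 (0.20, adjusted p = 0.00747). The block moved the list calls for the interaction from 1 to 2 (DNA sensing), 0 to 2 (genes downstream of both routes), 4 to 6 (PKR and stress response) and 1 to 4 (induced genes).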
